A study of Drosophila melanogaster with 9 samples.

Results

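The transcripts of 5 blood cell genes were followed in S2R+ cells grown in 3 media: lozenge (lz), Prophenoloxidase 1, 2 and 3 (PPO1, PPO2 and PPO3) and atilla. They were chosen by symbol out of the 17562 genes counted, as genes known from crystal cells (lz, PPO1, PPO2) and from lamellocytes (PPO3, atilla). Earlier results of these data were known when these 5 genes and the gene lists below were chosen. Counts of DE genes set beside a share over all genes are therefore a description and no test. The question asked of the 5 genes was whether such genes move together or singly. S2R+ is an adherent line of embryonic Oregon-R origin that belongs to the S2 family of blood cell-like lines. Cells in M3 + 10% FEx and in M3 + 2.5% FEx had been adapted to M3 medium with 10% or 2.5% of a heat-treated, filtered extract of whole adult flies (FEx), without serum and without the added bactopeptone and yeast extract. Control cells grew in MB10, which is M3 with bactopeptone, yeast extract and 10% bovine serum. Each medium had 3 RNA-seq libraries. The labels speak of triplicates and do not say whether these were separate cultures, so that the p-values measure the spread between these libraries, which may be technical. A single adapted line was grown in each extract medium, and cells already adapted to M3 + 10% FEx gave rise to those in M3 + 2.5% FEx. A change acquired by a line during adaptation and an effect of its medium cannot be told apart, nor can the effects of the extract, the serum and the other supplements.

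Drosophila blood holds 3 mature cell types. Plasmatocytes are phagocytes and make up most of the cells. Crystal cells store prophenoloxidase, which is released, cleaved to active phenoloxidase and used to make melanin at wounds and around pathogens. Lamellocytes are large flat cells that are rare in healthy larvae and wrap parasitoid wasp eggs. The Runx transcription factor Lz, switched on with the help of Notch signaling and of the GATA factor Serpent, sets the crystal cell fate and acts on the prophenoloxidase genes of these cells. PPO1 and PPO2 are the crystal cell prophenoloxidases, whereas PPO3 is made by lamellocytes. Atilla is a small membrane-anchored surface protein by which lamellocytes are recognised with antibodies.

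The libraries held 20694827 to 29076620 counts, and 8705 genes passed edgeR's expression filter and were tested. Expression is given as raw counts and as TMM-normalized CPM, edgeR's depth-scaled measure of a count, with the mean and SD of 3 libraries. A gene was called differentially expressed (DE) at an adjusted p under 0.05 in edgeR's quasi-likelihood test together with a log2 fold change above 1 or below -1. All genes tested together had a median log2 fold change over MB10 of -0.04 in either extract medium. Libraries of 1 medium correlated at 0.991 to 0.997 in log2 CPM. Of 12 plasmatocyte and general hemocyte genes 11 were expressed well enough to be tested, and NimC1, a phagocytic receptor of plasmatocytes, was the exception with 0 to 3 counts per library.

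In M3 + 10% FEx 3 of the 5 genes, lz, PPO1 and atilla, were DE and higher than in MB10, where 7.34% of all genes tested were DE and higher. The same 3 genes were DE and higher in M3 + 2.5% FEx over MB10 (background 5.59%) and in M3 + 10% FEx over M3 + 2.5% FEx (background 2.42%). PPO2 and PPO3 were DE in none of these comparisons in edgeR or in DESeq2. At an unadjusted p under 0.05, without the fold threshold, all 5 genes were higher in M3 + 10% FEx over M3 + 2.5% FEx (background 16.8%). All 5 genes were tested, but lz, PPO1 and atilla passed the expression filter only through extract libraries, lz through 5, PPO1 through 6 and atilla through 3, and a gene that passes only where it is high had to differ from the rest. Only 2 of the M3 + 2.5% FEx libraries passed for lz, so that lz was tested because of M3 + 10% FEx. The calls of lz, PPO1 and atilla against MB10, and those of lz and atilla between the extract media, are therefore a description. Among genes with 3 counts or fewer in every MB10 library 77 were tested, and 75 of them were DE and higher in M3 + 10% FEx. Because the 5 genes were chosen with earlier results of these data known, the backgrounds beside these counts are no test of the choice. The comparisons share libraries and are not independent of each other.

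**Figure D1:**
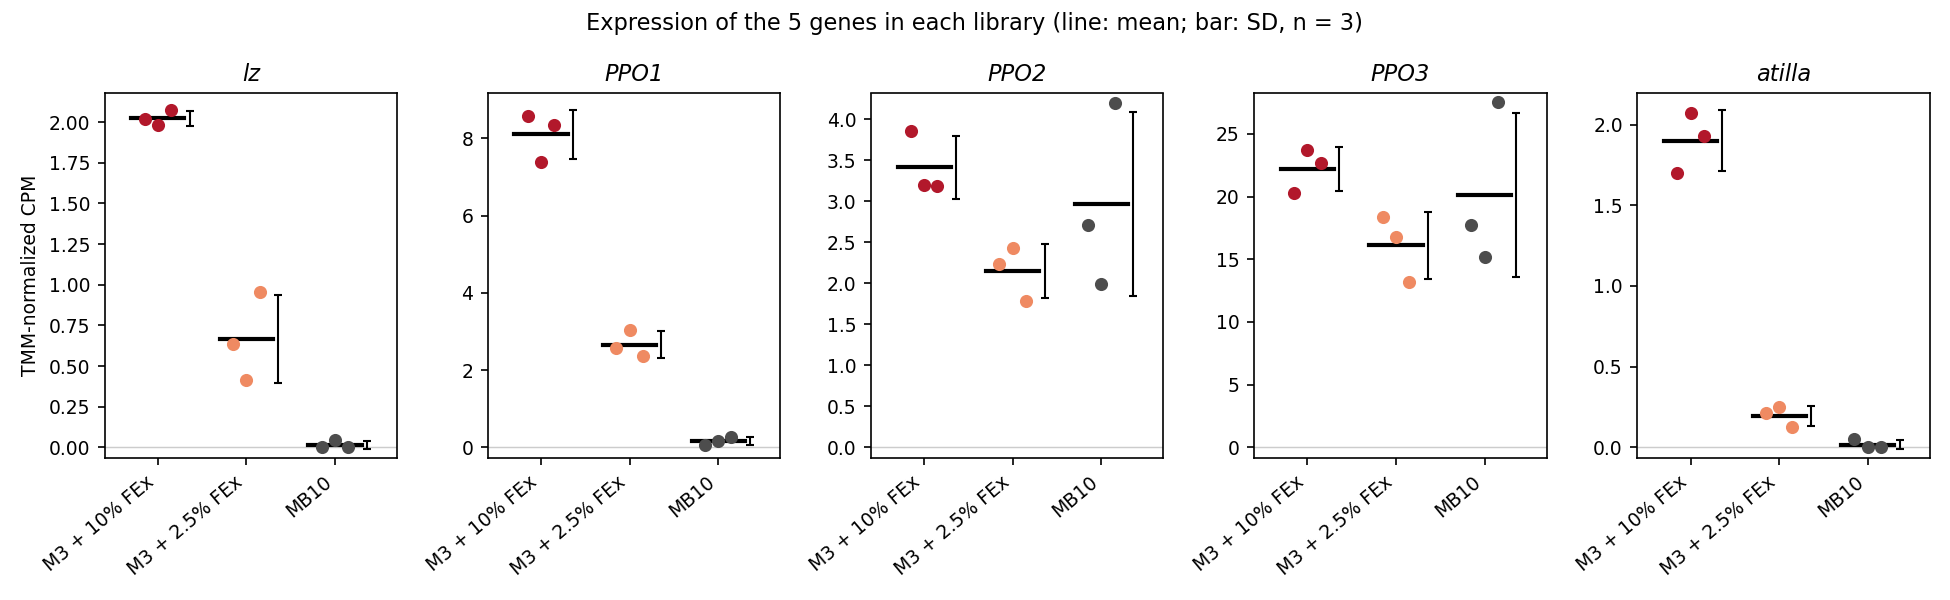
TMM-normalized CPM of lz, PPO1, PPO2, PPO3 and atilla (1 panel each, linear vertical axes that differ between panels) in the 3 libraries of M3 + 10% FEx, M3 + 2.5% FEx and MB10. Points are libraries, lines are means and bars are SDs (n = 3). For lz, PPO1 and atilla the media do not overlap, with means of 2.02, 8.10 and 1.90 CPM in M3 + 10% FEx, while PPO2 and PPO3 of MB10 overlap both extract media.

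The crystal cell factor lz (FBgn0002576, chromosome X from 9284649 to 9303636, plus strand) had 57, 44 and 43 counts in the M3 + 10% FEx libraries, 15, 10 and 23 counts in the M3 + 2.5% FEx libraries, and 0, 1 and 0 counts in the MB10 libraries. The media did not overlap, and 1 read in 3 libraries was all that MB10 held of lz. In CPM, lz was at 2.02 ± 0.0455 in M3 + 10% FEx and at 0.666 ± 0.273 in M3 + 2.5% FEx (SD, n = 3 each). The summed counts, scaled by depth, stood in a ratio of 132 for M3 + 10% FEx over MB10 (95% counting interval 23.3 to 5248) and of 43.4 for M3 + 2.5% FEx over MB10 (95% counting interval 7.43 to 1750). Such intervals cover counting error only. The fitted log2 fold changes were 6.61 (standard error 0.54, edgeR adjusted p = 9.97e-07) and 5.02 (standard error 0.71, edgeR adjusted p = 1.58e-04), values that depend on the prior count because MB10 held 1 count in all. Without MB10 replicate 2, the library with that count, they were 8.56 and 6.96. The extract media differed 3.02-fold in lz, M3 + 10% FEx being higher (log2 fold change 1.60, standard error 0.26, edgeR adjusted p = 0.00100).

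PPO1, on the minus strand of chromosome arm 2R at 17887220 to 17889973 (FBgn0283437), had 242, 164 and 173 counts in M3 + 10% FEx, 61, 74 and 57 counts in M3 + 2.5% FEx, and 1, 4 and 6 counts in MB10. Every extract library stood above every MB10 library, and the lowest M3 + 10% FEx library stood above the highest M3 + 2.5% FEx library. PPO1 averaged 8.10 ± 0.627 CPM in M3 + 10% FEx, 2.66 ± 0.347 CPM in M3 + 2.5% FEx and 0.165 ± 0.110 CPM in MB10 (SD, n = 3 each). The log2 fold change was 5.54 in M3 + 10% FEx over MB10 (standard error 0.25, edgeR adjusted p = 4.77e-09), a 46.7-fold difference. It was 3.94 in M3 + 2.5% FEx over MB10 (standard error 0.31, edgeR adjusted p = 8.64e-07), a 15.3-fold difference. Between the extract media PPO1 stood 3.04-fold higher in M3 + 10% FEx (log2 fold change 1.61, standard error 0.15, edgeR adjusted p = 1.84e-05). PPO1 is overlapped on the opposite strand by Elk, a potassium channel gene, which had 0 to 9 counts per library and summed to 13 counts in M3 + 10% FEx, 23 in M3 + 2.5% FEx and 4 in MB10. Whether the authors counted reads by strand is not given in the sources used here, and reads of overlapping genes could then not be told apart.

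The other crystal cell enzyme gene, PPO2 (FBgn0033367, chromosome arm 2R from 9042261 to 9044709, minus strand), was already expressed in MB10. It had 109, 71 and 66 counts in M3 + 10% FEx, 53, 59 and 43 counts in M3 + 2.5% FEx, and 54, 46 and 93 counts in MB10. MB10 replicate 3 lay above every other library of the series in CPM, at 4.19 CPM, and the remaining MB10 libraries lay at 2.71 and 1.99 CPM. PPO2 averaged 3.41 ± 0.387 CPM in M3 + 10% FEx, 2.15 ± 0.330 CPM in M3 + 2.5% FEx and 2.96 ± 1.12 CPM in MB10 (SD, n = 3 each). The log2 fold change over MB10 was 0.21 in M3 + 10% FEx (95% interval -0.29 to 0.71, edgeR adjusted p = 0.454) and -0.46 in M3 + 2.5% FEx (95% interval -0.997 to 0.07, edgeR adjusted p = 0.149). The interval in M3 + 10% FEx did not reach a 2-fold change in either direction, and it did not overlap the interval of PPO1, which ran from 4.99 to 6.10. Between the extract media every M3 + 10% FEx library was above every M3 + 2.5% FEx library, but the log2 fold change of 0.68 (95% interval 0.16 to 1.19) missed the threshold at an edgeR adjusted p of 0.0617. That p depended on the fit. The adjusted p was 0.00552 in an edgeR fit and 0.0213 in a DESeq2 fit of these 2 media alone, and 0.0155 in edgeR without the expression filter, with log2 fold changes of 0.67 to 0.68 that stayed under the fold threshold.

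The lamellocyte enzyme gene PPO3 (FBgn0261363, chromosome arm 2R from 23064769 to 23067183, plus strand) was the most abundant of the 5 in each medium. It had 573, 526 and 470 counts in M3 + 10% FEx, 435, 409 and 317 counts in M3 + 2.5% FEx, and 353, 351 and 610 counts in MB10. MB10 replicate 3 was again the highest library, at 27.5 CPM beside 17.7 and 15.2 CPM in the other MB10 libraries, and the MB10 values enclosed those of M3 + 10% FEx. PPO3 averaged 22.2 ± 1.74 CPM in M3 + 10% FEx, 16.1 ± 2.68 CPM in M3 + 2.5% FEx and 20.1 ± 6.51 CPM in MB10 (SD, n = 3 each). Its log2 fold change over MB10 was 0.14 in M3 + 10% FEx (95% interval -0.27 to 0.55, edgeR adjusted p = 0.561) and -0.32 in M3 + 2.5% FEx (95% interval -0.74 to 0.10, edgeR adjusted p = 0.193). Both intervals stayed within a 2-fold change. M3 + 10% FEx over M3 + 2.5% FEx gave 0.46 (95% interval 0.05 to 0.88), which missed the threshold at an edgeR adjusted p of 0.107. In the same 3 alternative fits the adjusted p of PPO3 was 0.00567 (edgeR, 2 media), 0.00130 (DESeq2, 2 media) and 0.0200 (edgeR, no filter), at log2 fold changes of 0.45 to 0.46, again under the fold threshold. Without MB10 replicate 3, M3 + 10% FEx over MB10 gave 0.43 for PPO3 (edgeR adjusted p = 0.00977) and 0.56 for PPO2 (edgeR adjusted p = 0.0225), both under the fold threshold, and M3 + 2.5% FEx over MB10 gave -0.03 for PPO3 and -0.12 for PPO2.

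The lamellocyte surface gene atilla lies on the minus strand of chromosome arm 2L at 12175451 to 12177886 (FBgn0032422). It had 48, 46 and 40 counts in M3 + 10% FEx, 5, 6 and 3 counts in M3 + 2.5% FEx, and 1, 0 and 0 counts in MB10. The M3 + 10% FEx libraries stood far above all others, and the M3 + 2.5% FEx libraries were close to the lowest level that the depth can show. In CPM, atilla was at 1.90 ± 0.187 in M3 + 10% FEx and at 0.194 ± 0.0629 in M3 + 2.5% FEx (SD, n = 3 each). The depth-scaled count ratio was 123 for M3 + 10% FEx over MB10 (95% counting interval 21.7 to 4886) and 12.7 for M3 + 2.5% FEx over MB10 (95% counting interval 1.93 to 536). The fitted log2 fold changes of 6.51 (standard error 0.48, edgeR adjusted p = 4.16e-07) and 3.27 (standard error 0.84, edgeR adjusted p = 0.00796) depend on the prior count, and without MB10 replicate 1, which held the 1 count, they were 8.48 and 5.24. In fits of M3 + 2.5% FEx and MB10 alone atilla was too low to be tested in edgeR and got no adjusted p in DESeq2, and lz was too low in edgeR. Between the extract media the log2 fold change was 3.25 (standard error 0.29, edgeR adjusted p = 1.47e-05), a 9.49-fold difference. The RNA-binding protein gene bru1 overlaps atilla on the opposite strand and had 4 to 17 counts per library, with sums of 32 in M3 + 10% FEx, 22 in M3 + 2.5% FEx and 19 in MB10.

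**Figure D2:**
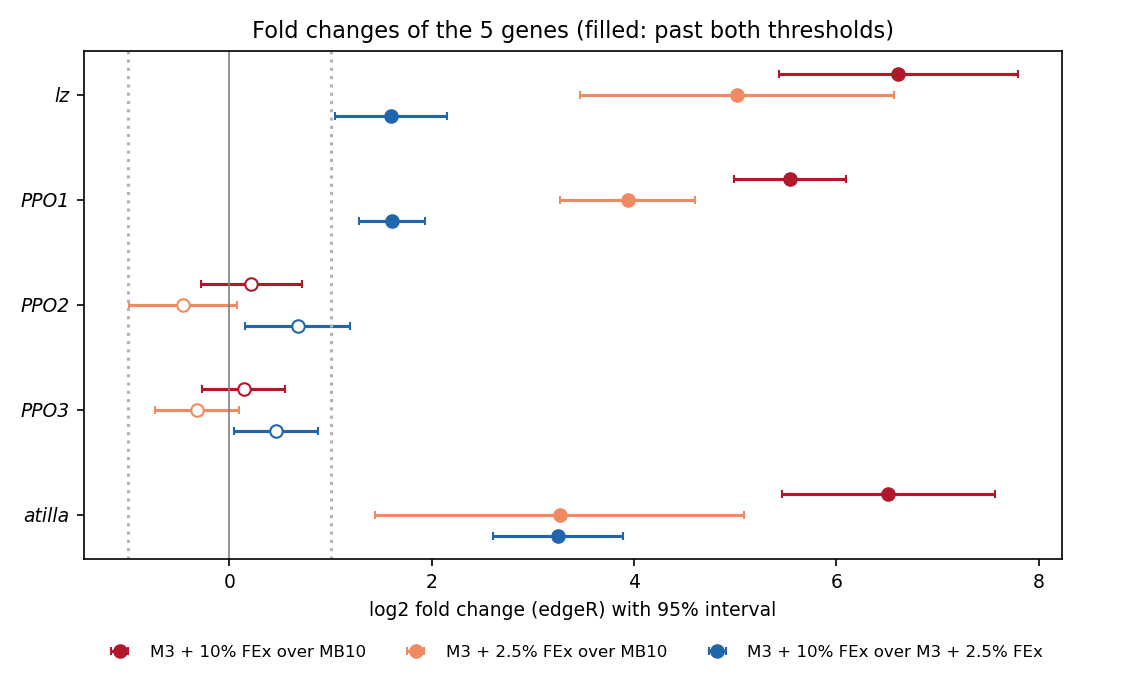
Log2 fold changes of the 5 genes (edgeR, horizontal axis) with 95% intervals, for M3 + 10% FEx over MB10, M3 + 2.5% FEx over MB10 and M3 + 10% FEx over M3 + 2.5% FEx. Filled points passed both thresholds, and dotted lines mark log2 fold changes of 1 and -1. PPO2 and PPO3 lie between -0.46 and 0.68, and lz, PPO1 and atilla lie between 1.60 and 6.61.

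These are bulk libraries, in which more expressing cells and more RNA per expressing cell cannot be told apart. Levels of different genes were therefore compared only per exonic length and per library, as CPM per kilobase of exon (RPKM). In M3 + 10% FEx the order was PPO3 at 9.97 RPKM, PPO1 at 3.46, atilla at 2.28, PPO2 at 1.50 and lz at 0.584 RPKM, and no neighbours in that order overlapped between libraries. In M3 + 2.5% FEx PPO3 stood at 7.23 RPKM. PPO1 at 1.14 RPKM (1.01 to 1.30) and PPO2 at 0.943 RPKM (0.782 to 1.06) overlapped there, as did atilla at 0.233 and lz at 0.192 RPKM. In MB10 PPO3 stood at 9.04 RPKM and PPO2 at 1.30 RPKM, and PPO1 was at 0.0704 RPKM, below PPO2 in every library, while lz and atilla, with 1 count each, could not be ordered.

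The make-up of the prophenoloxidase transcripts thus differed between media while PPO3 remained the most abundant. PPO1 made up 25.3%, 20.8% and 23.6% of the summed RPKM of the 3 prophenoloxidase genes in the M3 + 10% FEx libraries, 10.7%, 13.1% and 13.1% in the M3 + 2.5% FEx libraries, and 0.234%, 0.954% and 0.809% in the MB10 libraries. The 3 media did not overlap in this share. PPO3 accounted for 66.7% ± 3.54 in M3 + 10% FEx, 77.6% ± 1.99 in M3 + 2.5% FEx and 87.0% ± 0.753 in MB10 (SD, n = 3 each). PPO2 accounted for 10.1% ± 1.43 in M3 + 10% FEx, 10.1% ± 0.615 in M3 + 2.5% FEx and 12.4% ± 0.968 in MB10. The summed level was 14.9 ± 0.402 RPKM in M3 + 10% FEx, 9.31 ± 1.42 RPKM in M3 + 2.5% FEx and 10.4 ± 3.45 RPKM in MB10.

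**Figure D3:**
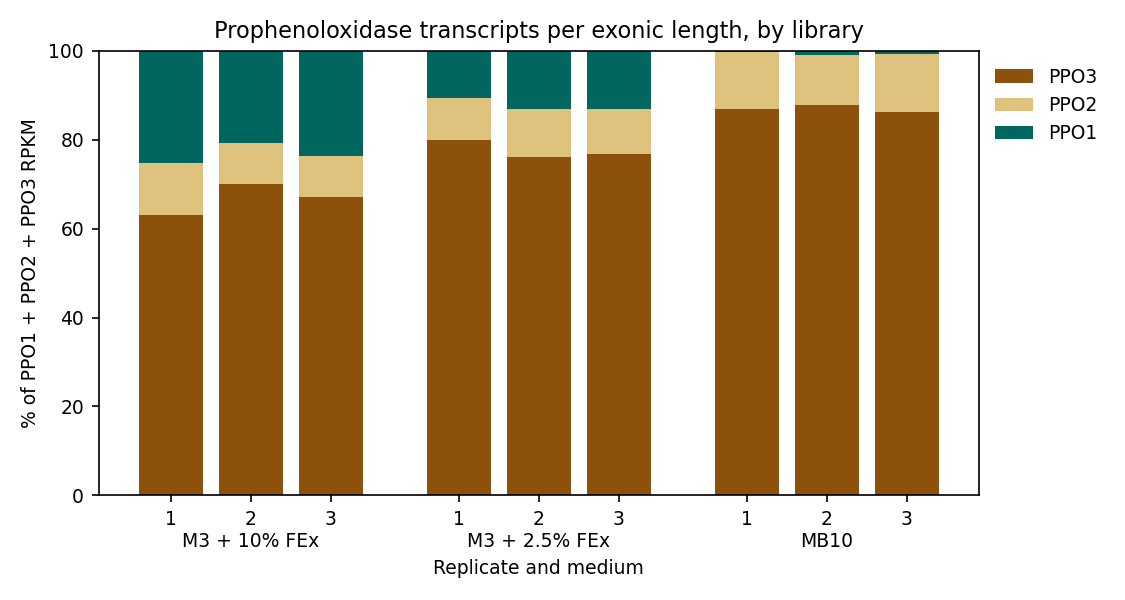
Share of PPO1, PPO2 and PPO3 in the summed prophenoloxidase RPKM (vertical axis, percent) of each library, replicates 1 to 3 of M3 + 10% FEx, M3 + 2.5% FEx and MB10. PPO1 takes 20.8% to 25.3% in M3 + 10% FEx, 10.7% to 13.1% in M3 + 2.5% FEx and under 1% in MB10, and PPO3 is the largest share in all 9 libraries.

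Over the 9 libraries, which fall into 3 media, lz and PPO1 followed each other most closely among the 5 genes, with a Pearson correlation of 0.971 in log2 CPM. Atilla stood at 0.900 with lz and 0.887 with PPO1, and PPO2 stood at 0.909 with PPO3. Correlations of lz, PPO1 or atilla with PPO2 or PPO3 lay between 0.063 and 0.392. In these values PPO2 went with PPO3 and atilla with lz and PPO1, across the cell types for which the genes are known. That does not decide whether genes move by cell type. The genes lz, PPO1 and atilla were near 0 in MB10 and passed the expression filter only through extract libraries. Their correlations with each other were thus partly fixed in advance. MB10 replicate 3 was the highest library for both PPO2 and PPO3. Per count of lz there were 4.25, 3.73 and 4.02 counts of PPO1 in the M3 + 10% FEx libraries, and 4.07, 7.40 and 2.48 in the M3 + 2.5% FEx libraries. Per count of atilla there were 5.04, 3.57 and 4.33 counts of PPO1 in M3 + 10% FEx but 12.2, 12.3 and 19.0 in M3 + 2.5% FEx. The latter rest on 5, 6 and 3 counts of atilla. Their 95% counting intervals (4.95 to 38.9, 5.41 to 34.7 and 6.18 to 94.9) reach below 7.02, the highest bound in M3 + 10% FEx. The ratios themselves did not overlap between the extract media, but their counting intervals did. Such count ratios are not scaled by exonic length and serve only to compare libraries. These correlations are descriptions over few media, and many genes share such a pattern. A correlation above 0.95 was found for 404 tested genes with lz, for 354 with PPO1 and for 112 with atilla.

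The genes whose levels were most like those of lz were the adenosine deaminase gene Adgf-A (Pearson correlation 0.995 over 9 libraries), the homeobox gene NK7.1 (0.994), the actin regulator gene Vrp1 (0.993), the integrin gene ItgaPS4 (0.993) and the zinc transporter gene foi (0.992). Those most like PPO1 were the transcription factor gene bab2 (0.994), Timp (0.994), which encodes a metalloprotease inhibitor, the A-type lamin gene LamC (0.994), the transferrin gene Tsf3 (0.993) and the pigmentation enzyme gene e (0.992). For atilla they were insc (0.993), which acts in asymmetric division, CG4678 (0.989), Swim (0.987), CG2841 (0.987) and the glycosyltransferase gene Ugt50B3 (0.985). The size of the difference varied among them. The log2 fold change of M3 + 10% FEx over MB10 was 1.04 for Adgf-A and 3.81 for ItgaPS4 beside 6.61 for lz, and 6.60 for Timp but 0.63 for Tsf3 beside 5.54 for PPO1.

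The wider crystal cell list moved in part. Of 10 genes known from crystal cells 8 were tested. In M3 + 10% FEx over MB10 4 were DE and higher (background 7.34%) and 1 was DE and lower (background 3.63%). The median log2 fold change was 0.84. Besides lz and PPO1 the higher genes were CG7860 and fok. CG7860 averaged 2.59 ± 0.347 CPM in M3 + 10% FEx, 1.30 ± 0.416 CPM in M3 + 2.5% FEx and 0.407 ± 0.205 CPM in MB10 (log2 fold changes over MB10 of 2.69 and 1.69, edgeR adjusted p = 3.09e-05 and 0.00342). The gene fok had 204, 140 and 287 counts in M3 + 10% FEx, 125, 146 and 90 counts in M3 + 2.5% FEx, and 73, 114 and 62 counts in MB10. Its log2 fold change over MB10 was 1.24 in M3 + 10% FEx (edgeR adjusted p = 0.00430) and 0.39 in M3 + 2.5% FEx (edgeR adjusted p = 0.340). The call in M3 + 10% FEx rested on replicate 3, without which the log2 fold change was 0.83 (edgeR adjusted p = 0.0136), under the fold threshold. The gene that fell was peb, which encodes a zinc finger factor that acts with Notch in crystal cell maturation. It had 101, 74 and 79 counts in M3 + 10% FEx, 46, 49 and 53 counts in M3 + 2.5% FEx, and 288, 354 and 402 counts in MB10, with log2 fold changes over MB10 of -2.16 (edgeR adjusted p = 2.24e-08) and -2.96 (edgeR adjusted p = 3.94e-09). In M3 + 2.5% FEx over MB10 3 genes of the list were DE and higher, lz, PPO1 and CG7860 (background 5.59%). There peb was DE and lower (background 2.93%), and the median log2 fold change was 0.01. Without lz, PPO1 and PPO2, 2 of 5 tested genes were DE and higher (background 7.34%) and 1 was DE and lower (background 3.63%) in M3 + 10% FEx over MB10. Their median log2 fold change was 0.43. In M3 + 2.5% FEx over MB10 1 of these 5 was DE and higher (background 5.59%) and 1 DE and lower (background 2.93%), at a median of -0.38. Gnmt, CG10467, CG17109 and klu completed the list. CG10467 was tested and not DE, at 45.5, 47.5 and 61.9 CPM in M3 + 10% FEx, M3 + 2.5% FEx and MB10. By the adjusted p alone it was lower in both extract media over MB10 (edgeR adjusted p = 7.43e-05 and 3.61e-04). By that p 4 of the 8 tested genes were higher and 2 lower in M3 + 10% FEx over MB10. In M3 + 2.5% FEx over MB10 3 were higher and 2 lower. Of all genes tested 25.5% and 22.0% were higher by that p. At an unadjusted p under 0.05 the counts of the list were the same, and 30.5% and 27.1% of all genes tested were lower. The gene klu, a zinc finger gene that works with lz in crystal cells, was too low to be tested. It had 31 counts summed over the M3 + 10% FEx libraries, 16 over the M3 + 2.5% FEx libraries and 6 over the MB10 libraries. Without the expression filter klu passed the thresholds in M3 + 10% FEx over MB10 (log2 fold change 2.18, edgeR adjusted p = 0.00329), and in DESeq2 it did so at an adjusted p of 0.0130. CG10467 and klu were named after their values had been seen.

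Of 18 genes that act in crystal cell specification 12 were tested. Apart from lz none of these 12 was DE and higher in either extract medium over MB10 in edgeR with the expression filter. At an unadjusted p under 0.05 5, lz included, were higher in each, where 27.6% of all genes tested were in M3 + 10% FEx and 24.8% in M3 + 2.5% FEx. By the same p 5 were lower in M3 + 10% FEx over MB10 (background 30.5%) and 2 in M3 + 2.5% FEx over MB10 (background 27.1%). In edgeR without the expression filter and in DESeq2 klu joined lz in M3 + 10% FEx over MB10. Ser, which encodes a Notch ligand that induces crystal cell precursors in the larval lymph gland, had 8, 5 and 4 counts in M3 + 10% FEx, 22, 24 and 26 counts in M3 + 2.5% FEx, and 237, 276 and 269 counts in MB10. Its log2 fold changes over MB10 were -5.62 (standard error 0.16, edgeR adjusted p = 7.07e-11) and -3.58 (standard error 0.12, edgeR adjusted p = 5.75e-10), and thus of opposite sign to those of lz. Ser passed the expression filter only through the libraries of M3 + 2.5% FEx and MB10, where it is higher, so these calls are a description. Ser and peb were the DE and lower genes of this list, beside 3.63% of all genes tested in M3 + 10% FEx over MB10 and 2.93% in M3 + 2.5% FEx over MB10. The upstream factors named next were expressed in all media and did not pass the fold threshold over MB10. The GATA factor gene srp was at 229.9 ± 11.8 CPM in M3 + 10% FEx, 264.9 ± 5.28 CPM in M3 + 2.5% FEx and 290.1 ± 4.55 CPM in MB10. Its cofactor gene ush was at 511.5 ± 37.4, 473.1 ± 16.5 and 335.7 ± 43.3 CPM in these media, the Notch receptor gene N at 120.5 ± 4.59, 136.8 ± 6.10 and 141.2 ± 5.23 CPM, and Bgb, whose product partners with Runx proteins such as Lz, at 51.3 ± 4.80, 52.6 ± 2.23 and 58.8 ± 6.61 CPM. By the adjusted p alone, srp (edgeR adjusted p = 5.83e-04) and N (edgeR adjusted p = 0.00759) were lower in M3 + 10% FEx over MB10. In the same comparison ush was higher (edgeR adjusted p = 1.92e-04). In M3 + 2.5% FEx over MB10 ush was higher (edgeR adjusted p = 0.00127), and srp and N did not pass. Bgb passed in neither. Of the other regulators tested, sima, yki and sd were higher by that p in M3 + 10% FEx over MB10 (edgeR adjusted p = 1.82e-04, 0.0225 and 0.0156). In M3 + 2.5% FEx over MB10 sima and jumu were higher (edgeR adjusted p = 0.00233 and 7.20e-04). Su(H) passed in neither, and none of these passed the fold threshold. Like srp, ush, N and Bgb, these genes were named after their values had been seen. The Notch ligand gene Dl had 0 to 6 counts per library. The embryonic glial and hemocyte factor genes gcm and gcm2, the Runx gene run and the second Runx partner gene Bro had 2 counts or fewer in each library, so that transcripts of these 4 were not detectable above the floor of 3 counts.

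The lamellocyte list held 11 genes, of which 10 were matched to the count table and tested. Over MB10, 6 were DE and higher in M3 + 10% FEx (background 7.34%), at a median log2 fold change of 1.23. None was lower in edgeR at an unadjusted p under 0.05 (background 30.5%) or DE and lower in DESeq2. In M3 + 2.5% FEx over MB10 3 were DE and higher, atilla, ItgaPS4 and CG1208 (background 5.59%), at a median of 0.58. ItgaPS4, an integrin alpha chain gene of lamellocytes, averaged 43.0 ± 1.21 CPM in M3 + 10% FEx, 14.4 ± 1.88 CPM in M3 + 2.5% FEx and 3.04 ± 0.702 CPM in MB10. Its log2 fold changes over MB10 were 3.81 (edgeR adjusted p = 7.91e-10) and 2.24 (edgeR adjusted p = 1.75e-07). Of the cytoskeletal genes, cher (filamin) gave 1.13 in M3 + 10% FEx over MB10 (edgeR adjusted p = 1.92e-07) and shot (spectraplakin) gave 1.33 (edgeR adjusted p = 9.28e-07), and neither passed the fold threshold in M3 + 2.5% FEx, with 0.49 and 0.66. CG15347 was DE and higher in M3 + 10% FEx, at 12.6 ± 0.843 CPM against 4.95 ± 0.835 CPM in MB10, and gave 0.03 in M3 + 2.5% FEx. CG1208 gave 2.61 and 2.33, but from 16, 7 and 19 counts in M3 + 10% FEx, 9, 11 and 15 counts in M3 + 2.5% FEx and 3, 3 and 0 counts in MB10. It passed the expression filter only through 2 libraries of each extract medium, so its calls are a description. In an edgeR fit of M3 + 2.5% FEx and MB10 alone 1 gene of the list was DE in place of 3, and 8 were tested. Smaller shifts fell under the fold threshold. By the adjusted p alone 9 of the 10 genes were higher in M3 + 10% FEx over MB10, where 25.5% of all genes tested were, and 8 in M3 + 2.5% FEx over MB10, where 22.0% were. PPO3 was the 1 gene of the list outside this count in M3 + 10% FEx. The integrin beta chain gene mys, at 429.1 ± 5.82 CPM in M3 + 10% FEx and 253.2 ± 7.68 CPM in MB10, and the talin gene rhea, at 331.9 ± 9.06 CPM and 188.0 ± 18.1 CPM in the same media, were well expressed in MB10, in contrast to atilla, and were named after their values had been seen.

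**Figure D4:**
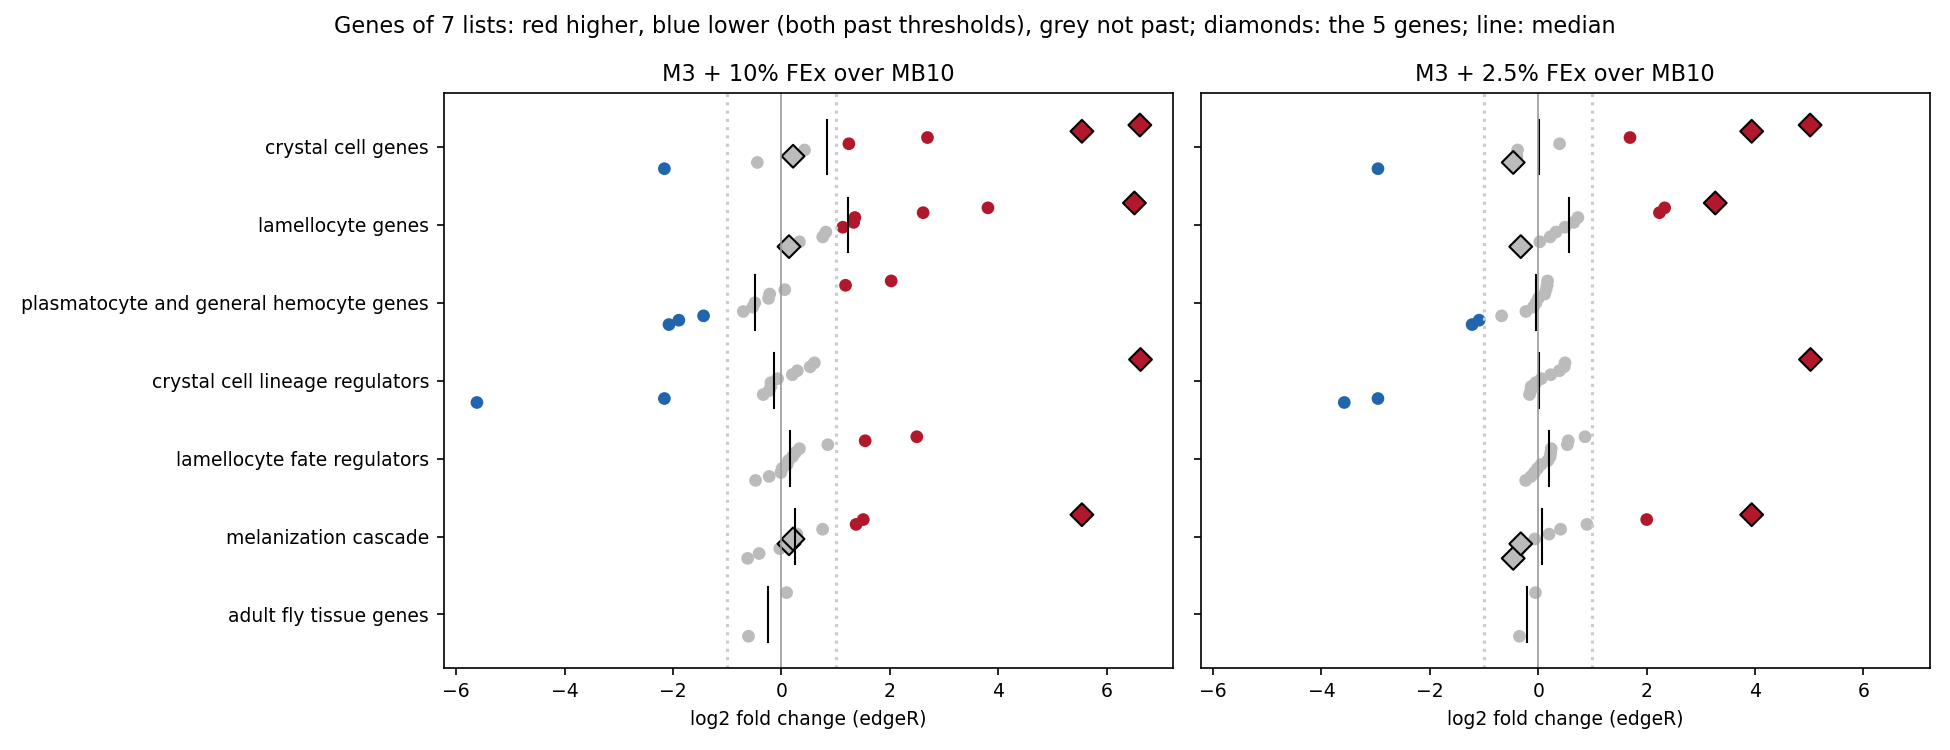
Log2 fold changes (edgeR, horizontal axis) of the tested genes of 7 lists (1 row each) in M3 + 10% FEx over MB10 and in M3 + 2.5% FEx over MB10. Diamonds are lz, PPO1, PPO2, PPO3 and atilla, dots are other genes, red and blue mark genes past both thresholds and black bars are list medians. The medians of the crystal cell and lamellocyte lists are 0.84 and 1.23 in M3 + 10% FEx over MB10, and 0.43 and 1.23 without the 5 genes. Lists that share a gene show it in each row.

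Among 13 regulators tied to lamellocyte formation 12 were tested. In M3 + 10% FEx over MB10 2 were DE and higher (background 7.34%). In M3 + 2.5% FEx over MB10 none was DE in edgeR or DESeq2. At an unadjusted p under 0.05, 5 were higher there (background 24.8%) and 1 was lower (background 27.1%). The gene cact, whose product holds back the NF-κB factors of the Toll pathway, averaged 225.2 ± 12.6 CPM in M3 + 10% FEx, 140.4 ± 0.834 CPM in M3 + 2.5% FEx and 77.1 ± 4.96 CPM in MB10 (log2 fold changes over MB10 of 1.54 and 0.86, edgeR adjusted p = 2.95e-09 and 7.59e-07). The receptor gene Egfr had 20, 11 and 20 counts in M3 + 10% FEx, 5, 5 and 3 counts in M3 + 2.5% FEx and 1, 5 and 2 counts in MB10 (log2 fold change in M3 + 10% FEx over MB10 2.50, edgeR adjusted p = 6.79e-04). Egfr passed the expression filter only through the M3 + 10% FEx libraries, and its call is a description. The transcription factor gene kn, which is needed for lamellocytes in wasp-infected larvae, had 0 to 3 counts per library. The median of this list was 0.17 in M3 + 10% FEx over MB10 and 0.20 in M3 + 2.5% FEx over MB10.

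Of 14 genes of the melanization route 10 were tested. Besides PPO1, the serpin gene Spn77Ba and the dopachrome conversion enzyme gene yellow-f2 were DE and higher in M3 + 10% FEx over MB10 (background 7.34%). None was DE and lower in edgeR or DESeq2, although 2 were lower at an unadjusted p under 0.05 (background 30.5%). Spn77Ba, which encodes an inhibitor of melanization in the tracheal system, averaged 10.3 ± 0.630 CPM in M3 + 10% FEx, 14.5 ± 1.38 CPM in M3 + 2.5% FEx and 3.61 ± 0.472 CPM in MB10 (log2 fold changes over MB10 of 1.51 and 2.00, edgeR adjusted p = 1.13e-06 and 9.87e-08). Unlike PPO1, it was highest in M3 + 2.5% FEx. The gene yellow-f2 averaged 5.17 ± 0.873 CPM in M3 + 10% FEx, 3.69 ± 0.368 CPM in M3 + 2.5% FEx and 1.97 ± 0.299 CPM in MB10 (log2 fold changes over MB10 of 1.38 and 0.90). The protease genes Hayan and psh had 0 to 3 and 0 to 2 counts per library, and the dopamine synthesis genes ple and Ddc had 2 to 14 and 1 to 7 counts, so that these 4 genes were not tested. The list median was 0.25 in M3 + 10% FEx over MB10 and 0.07 in M3 + 2.5% FEx over MB10.

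Genes of the remaining blood cell type were followed beside these. Of the 11 tested plasmatocyte and general hemocyte genes 2 were DE and higher in M3 + 10% FEx over MB10 (background 7.34%). There 3 were DE and lower (background 3.63%), and the median log2 fold change was -0.49. In M3 + 2.5% FEx over MB10 none was DE and higher in edgeR or DESeq2. None was higher there at an unadjusted p under 0.05 (background 24.8%). In that comparison 2 were DE and lower (background 2.93%), at a median of -0.04. The pan-hemocyte gene He averaged 2.79 ± 0.546 CPM in M3 + 10% FEx, 0.777 ± 0.134 CPM in M3 + 2.5% FEx and 0.680 ± 0.199 CPM in MB10. The engulfment receptor gene drpr had a log2 fold change of 1.18 in M3 + 10% FEx over MB10. The matrix peroxidase gene Pxn averaged 89.3 ± 6.17 CPM in M3 + 10% FEx, 161.7 ± 12.9 CPM in M3 + 2.5% FEx and 376.6 ± 34.8 CPM in MB10, and the secreted protein gene Glt was at 582.4 ± 17.6, 741.3 ± 31.9 and 1578 ± 163.0 CPM in these media, with log2 fold changes over MB10 of -1.44 and -1.09. The hemolectin gene Hml was at 3.23 ± 0.483 CPM in M3 + 10% FEx, against 13.5 ± 0.606 CPM in M3 + 2.5% FEx and 12.0 ± 2.52 CPM in MB10. The summed level of the 12 genes was 1203 to 1249 CPM in M3 + 10% FEx, 1415 to 1481 CPM in M3 + 2.5% FEx and 2296 to 2644 CPM in MB10. Glt and Pxn carried that difference in the sum, since the other 10 genes summed to 546.0 to 565.3 CPM in M3 + 10% FEx, 526.7 to 569.3 CPM in M3 + 2.5% FEx and 496.9 to 615.1 CPM in MB10. Most of the latter was crq, named after its values had been seen, at 444.9, 414.6 and 426.3 CPM in these media. At an unadjusted p under 0.05, 2 of the 11 tested genes were higher in M3 + 10% FEx over MB10 (background 27.6%) and 7 were lower (background 30.5%). In M3 + 2.5% FEx over MB10 3 were lower (background 27.1%). The part of this shift in the values of the 5 genes was not tested.

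The extract was made from whole adult flies, so genes of adult eye, muscle, fat body, ovary, accessory gland, gut and antenna were followed as well. Of 18 such genes 2 were tested and none was DE in any comparison in edgeR or DESeq2. At an unadjusted p under 0.05, 1 was lower in M3 + 10% FEx over MB10 (background 30.5%), the muscle gene TpnC4, which was named after its values had been seen. TpnC4 was expressed in every medium, at 53.7 CPM in M3 + 10% FEx, 78.9 CPM in M3 + 2.5% FEx and 81.8 CPM in MB10. The other 17 genes together had 40 to 53 counts per library in M3 + 10% FEx, 22 to 35 in M3 + 2.5% FEx and 27 to 44 in MB10, with no gene above 15 counts in any library. Of the list, Arr1, SP, Cp15, Cp36 and Amyrel had no count in any library. Genes without a count in a given medium numbered 6 in M3 + 10% FEx, 6 in M3 + 2.5% FEx and 10 in MB10. The part of extract RNA in the values of the 5 genes was not tested.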

How the data were processed

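Total RNA of S2R+ cells was sequenced in 9 libraries. Per the paper's methods and the submitters' processing notes, the authors demultiplexed reads with bcl2fastq 2.20.0, named Trimmomatic 0.36, mapped to dmel_r6.30 with HISAT2 2.1.0 and counted reads per gene with featureCounts 1.6.4. The deposited values are raw read counts without normalization. Strand and multi-mapping settings are not given in the sources used here. Groups were taken from the GEO labels.

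Counts were normalized by TMM and tested in edgeR 4.0.16 (R 4.3.3, limma 3.58.1) with the two-sided quasi-likelihood F test, in 1 model of all 9 libraries over genes kept by filterByExpr (CPM above 0.440 in enough libraries), with Benjamini-Hochberg adjustment over 8705 genes in each comparison. The DE thresholds were those of the study (adjusted p of 0.05, log2 fold change of 1 in size). Standard errors are the log2 fold change over the square root of F. RPKM used TMM-scaled totals and exonic lengths of the Ensembl BDGP6.54 annotation, a later annotation of the same assembly. Symbols were found for 17477 of 17562 identifiers. The fit was run on simulated counts with known fold changes. Each simulated baseline was kept at or above a share of the gene's mean over all libraries. Genes near 0 in MB10, such as lz and atilla, were thus not simulated at that level, and their calls are not covered.

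The 5 genes and all gene lists were chosen with earlier results of these data known. From each list up to 6 genes DE in M3 + 10% FEx over MB10 were named by smallest p, with the 5 genes most correlated with each of lz, PPO1 and atilla, genes next to the 5 genes and markers near 0. Of the lamellocyte list, betaTub60D was not matched to a counted identifier and was not analysed here. Alternatives were RLE or no scaling, no filter, a filter of 10 counts in every library, DESeq2 1.42.0, fits of 2 media, a replicate block and leaving out each library. Replicate libraries differed by more than counting error (chi-square per degree of freedom 9.75 to 66.1), so none was counted as a duplicate. A total of 20694827 to 29076620 counts per library makes 3 counts equal to 0.106 to 0.151 CPM.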

Additional observations from a re-analysis of the deposited data

How the results depend on the processing

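Of the alternatives run on the log2 fold changes of the 5 genes, 197 of the 198 values obtained kept the direction and the DE call, which takes the adjusted p and the fold threshold together, and 1 turned round: PPO3 in M3 + 10% FEx over MB10 was -0.014 without MB10 replicate 2 (edgeR adjusted p = 0.95). Fits that removed lz, PPO1 or atilla, or gave them no adjusted p, are not among the 198. The adjusted p alone crossed 0.05 in 10 values, all of PPO2 and PPO3 and under the fold threshold, and was then lower than in the fit reported. The number of the 5 genes that were DE was 0 in each comparison when 10 counts were required in every library, because lz, PPO1 and atilla are then removed. It was 1, PPO1, for M3 + 2.5% FEx over MB10 in an edgeR fit of these 2 media, where lz and atilla do not pass the filter, and 2 in a DESeq2 fit of the same media. With each library left out it stayed at 3 in all comparisons. Of the 59 list genes tested, 21 were DE in M3 + 10% FEx over MB10, 11 in M3 + 2.5% FEx over MB10 and 11 in M3 + 10% FEx over M3 + 2.5% FEx. With each library left out these counts were 20 to 21, 11 to 12 and 10 to 12. With 10 counts in every library they were 13, 5 and 4 of 49. That filter left 554, 406 and 152 DE genes of 7910 in all, against 955, 742 and 302 of 8705.

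With each library left out, the log2 fold changes over MB10 ran from 6.15 to 8.56 (lz), 5.18 to 6.06 (PPO1), 6.04 to 8.48 (atilla), 0.0020 to 0.56 (PPO2) and -0.01 to 0.43 (PPO3) in M3 + 10% FEx. In M3 + 2.5% FEx they ran from 4.55 to 6.96 (lz), 3.58 to 4.46 (PPO1), 2.79 to 5.24 (atilla), -0.67 to -0.12 (PPO2) and -0.47 to -0.03 (PPO3). In M3 + 10% FEx over M3 + 2.5% FEx they ran from 1.34 to 1.94 (lz), 1.52 to 1.71 (PPO1), 3.01 to 3.45 (atilla), 0.55 to 0.77 (PPO2) and 0.33 to 0.57 (PPO3). For PPO2 and PPO3 the MB10 libraries decided the value: without MB10 replicate 2, M3 + 2.5% FEx over MB10 gave edgeR adjusted p-values of 0.0188 (PPO2) and 0.0334 (PPO3), under the fold threshold.

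The labels number the replicates alike in each medium. Deviations of same-numbered libraries correlated at 0.014, -0.226 and 0.028 on average in the 3 comparisons and in no pair above 0.1, so the numbers were not taken as pairs. Fitting replicate numbers as a block left 3 of the 5 genes DE in each comparison, and 946, 724 and 285 genes in all. Of 6 libraries, 2, 0 and 3 correlated best with their own number. At 3 counts per library or fewer, absence of a transcript cannot be told from a low level.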

Other observations

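Genes beside the 5 genes on the chromosome were looked up in the annotation. The nearest gene before lz, c11.1, lies 1532 bases away on the opposite strand and had log2 fold changes over MB10 of 0.79 in M3 + 10% FEx (edgeR adjusted p = 5.33e-07) and 0.38 in M3 + 2.5% FEx (edgeR adjusted p = 3.64e-04), under the fold threshold. The nearest gene on its other side, lncRNA:CR44534, had no count in any library. The nearest genes that do not overlap PPO1, CG30110 and CG14492, had no count in any library either. PPO2 lies 119 bases from Ance-4 (log2 fold changes over MB10 of -0.30 in M3 + 10% FEx, -0.52 in M3 + 2.5% FEx) and 141 bases from CG13743 (-0.58 and -0.18). PPO3 lies 13 bases from l(2)k09913 on the same strand (-0.22 and -0.21, neither past the adjusted p) and 509 bases from CG9890 (-0.39 and -0.36). Beside atilla, CG31759 gave 0.12 and 0.09, and lncRNA:CR43356 was not tested, with 13 counts summed over M3 + 10% FEx, 15 over M3 + 2.5% FEx and 6 over MB10. None of the neighbours with a test was DE over MB10 in either medium in edgeR. Of all genes tested 7.34% were DE and higher and 3.63% DE and lower in M3 + 10% FEx over MB10. In M3 + 2.5% FEx over MB10 these shares were 5.59% and 2.93%. By the edgeR adjusted p alone CG9890 was lower in both media (0.00459 and 0.0105), CG13743 in M3 + 10% FEx (0.00678) and Ance-4 in M3 + 2.5% FEx (0.0306). CG31759 passed in neither.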
